A study of Mus musculus with 4 samples.

Results

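Cytokine mRNA decay factors were followed here as 10 genes of 53379 with a value in the deposited expression table: the tristetraprolin family (Zfp36, Zfp36l1 and Zfp36l2), the regnases (Zc3h12a, Zc3h12b, Zc3h12c and Zc3h12d), the roquins (Rc3h1 and Rc3h2) and N4bp1. They were chosen by name, as the rows that carry these gene symbols. Earlier results of these data were known when the choice was made. The cells were group 3 innate lymphoid cells (ILC3s), lymphocytes without antigen receptors that make IL-22 and IL-17 in the gut. Equal numbers of bone marrow cells of 2 donors were mixed and given to sublethally irradiated Rag2-/-Il2rg-/- hosts, which have no T, B or innate lymphoid cells of their own. The Brg1-sufficient donor was Thy1.2 Rag1-/- Smarca4 f/f and the Brg1-deficient donor was Thy1.1Thy1.2 Rag1-/- with Smarca4, the gene of the chromatin remodeler Brg1, deleted in ILC3s, so both lacked Rag1 and with it T and B cells. After 6 to 7 weeks, Thy1.2high CD45low cells of the small intestine were sorted, Thy1.1- for the Brg1-sufficient group and Thy1.1+ for the Brg1-deficient group, with 2 RNA libraries per group. Thy1.1 went with the genotype, so an effect of the marker and an effect of Brg1 loss cannot be told apart. The libraries were called biological duplicates by the study, and the sources used here give neither the age of the mice nor whether animals were pooled.

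Decay factors shorten the life of mRNAs that encode cytokines and other short-lived proteins. The tristetraprolin family binds AU-rich elements in 3' UTRs and recruits the CCR4-NOT deadenylase complex, which removes the poly(A) tail. Regnase-1, the product of Zc3h12a, is an endonuclease that cuts stem-loops in 3' UTRs, and the roquins bind stem-loops and recruit the same deadenylase. The transcript of Csf2, which encodes GM-CSF, is the classic AU-rich mRNA.

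The preferred site of the tristetraprolin family is the nonamer UUAUUUAUU, written TTATTTATT in DNA letters. It was searched on the sense strand of the 3' UTR of 1 principal transcript per gene, in GENCODE M21 on GRCm38, with overlapping matches counted. Among the decay factors, the nonamer was found once each in Zfp36, Zfp36l1, Zfp36l2, Rc3h1 and Rc3h2, so all 3 members of the family that reads this element held it. It was found in 0 of the 4 regnase 3' UTRs and not in that of N4bp1. Of all tested genes with a 3' UTR, 791 of 10942 (7.23%) held it. A long 3' UTR holds any word more often, and among tested genes with a 3' UTR of like length (shorter at least 0.8 times the longer) the share was 4.61% for Zfp36, 9.15% for Zfp36l1, 8.97% for Zfp36l2, 27.2% for Rc3h1 and 21% for Rc3h2. The sequences below are 30-base windows of transcript sequence with the nonamer in capitals, shown for the family's own transcripts and for 5 target transcripts with nonamers that are described further on. Overlapping nonamers run together. A match describes the letters and is not a measured binding site.
Zfp36: tatgacgactTTATTTATTgtattaagatt
Zfp36l1: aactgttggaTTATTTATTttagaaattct
Zfp36l2: actatttaacTTATTTATTatcttgtgaaa
Il2: ttatctgaaaTTATTTATTatattgaattg
Csf2: ttttaaatatTTATTTATTTATTTATTtat
Tnf: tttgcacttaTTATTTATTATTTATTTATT
Ptgs2: ctgaccatatTTATTTATTtatgtgaagaa
Cxcl1: atttatgtatTTATTTATTccacaaagtgt

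On GRCm38, the windows of the decay factors are at chr7:28376950-28376979 for Zfp36, chr12:80108166-80108195 for Zfp36l1 and chr17:84184913-84184942 for Zfp36l2, all on the minus strand. The windows of Il2 at chr3:37120897-37120926, Csf2 at chr11:54247328-54247357 and Tnf at chr17:35199688-35199717 are also on the minus strand. Those of Ptgs2 at chr1:150105790-150105819 and Cxcl1 at chr5:90892615-90892644 are on the plus strand. The whole 3' UTR held 5 nonamers in Tnf, 4 in Csf2, 2 in Cxcl1 and 1 each in Il2 and Ptgs2. Tnf was added to the windows after its values were seen.

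Levels are given as the deposited FPKM, a unit of fragment numbers scaled by transcript length and by library size. Same-ranked values were nearly equal across libraries, as quantile normalization gives, and the read depth of the libraries is unknown. Smarca4, the targeted gene, had 17.1 and 16.7 FPKM in control cells against 9.98 and 9.03 FPKM in Brg1-deficient cells, a mean of 56.2% of the control (adjusted p = 0.153 from limma). All 10 ILC3 markers listed were above 1 FPKM in every library. Summed marker lists named after several other cell types were lower in the Brg1-deficient libraries. The summed level of 9 ILC1 and NK cell markers was 190 and 225 FPKM against 91.8 and 81.1 FPKM. Of the 7 tested, 4 (57.1%) were lower without overlap, beside 20.2% of all genes tested, and Klrb1c, Gzmb and Ccl5 overlapped. Of the 4, Prf1 was tested only through the Brg1-sufficient group, where it was high. Ncr1 and Tbx21, for NKp46 and T-bet, were on this list. Without Brg1, the study reports fewer ILC3s with NKp46 and, among ILC3s without NKp46 and CCR6, fewer cells with T-bet. It reports less Tbx21 mRNA in sorted ILC3s without NKp46 and a like level in those with it. The summed level of 8 ILC2 markers was 363 and 201 against 95.1 and 121 FPKM, and that of 7 T cell markers 101 and 54.9 against 29.8 and 32.9 FPKM. Of 5 B cell markers, 4 were under 1 FPKM in all libraries, and the other, Cd79b, was at 8.68 and 10 FPKM against 1.03 and 0.99 FPKM (adjusted p = 0.0386 from limma). Of 7 epithelial markers, 5 were under 1 FPKM throughout, and the 2 tested went opposite ways. Krt8 was at 0.44 and 0.38 against 2.65 and 2.34 FPKM, higher in the Brg1-deficient libraries. Epcam was at 1.5 and 1.79 against 0.68 and 0.54 FPKM, lower in them. Each was tested only through the group where it was high. Cd4, on the T cell list, was alone at 43.6 and 32.8 FPKM against 25.2 and 19.8 FPKM. By genotype, donors and hosts had no T or B cells, and which cells the transcripts of the T and B cell lists came from was not tested. In bulk RNA, fewer cells of a type and less of an mRNA per cell cannot be told apart. The part of these markers in the differences of the decay factors was not tested.

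The decay factors spanned a wide range of levels, and the tristetraprolin family made up most of the sum. Zfp36, Zfp36l1 and Zfp36l2 together held 96.3% and 97.6% of the summed FPKM of all 10 genes in the Brg1-sufficient libraries and 97.6% and 98.3% in the Brg1-deficient libraries. By the mean of the 4 libraries, Zfp36 came first at 1639 FPKM and Zfp36l1 followed at 766 FPKM, with ranges that overlapped. Zc3h12a, at 37.5 FPKM, was the highest regnase, and the level of Zfp36l1 was 20.4 times as high. Zfp36l2 followed at 16.9 FPKM, apart from its neighbours in this order. Rc3h1 and Rc3h2, at 6.68 and 6.4 FPKM, had overlapping ranges, as did N4bp1 and Zc3h12c at 4.28 and 3.08 FPKM. Zc3h12d and Zc3h12b were lowest at 1.07 and 0.71 FPKM, and their ranges overlapped too. Zfp36 and Zfp36l1 stood at percentiles 99.7 and 99.3 of the mean level of all genes tested, Zc3h12a at percentile 81.7 and Rc3h1 at percentile 47.4.

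**Figure D1:**
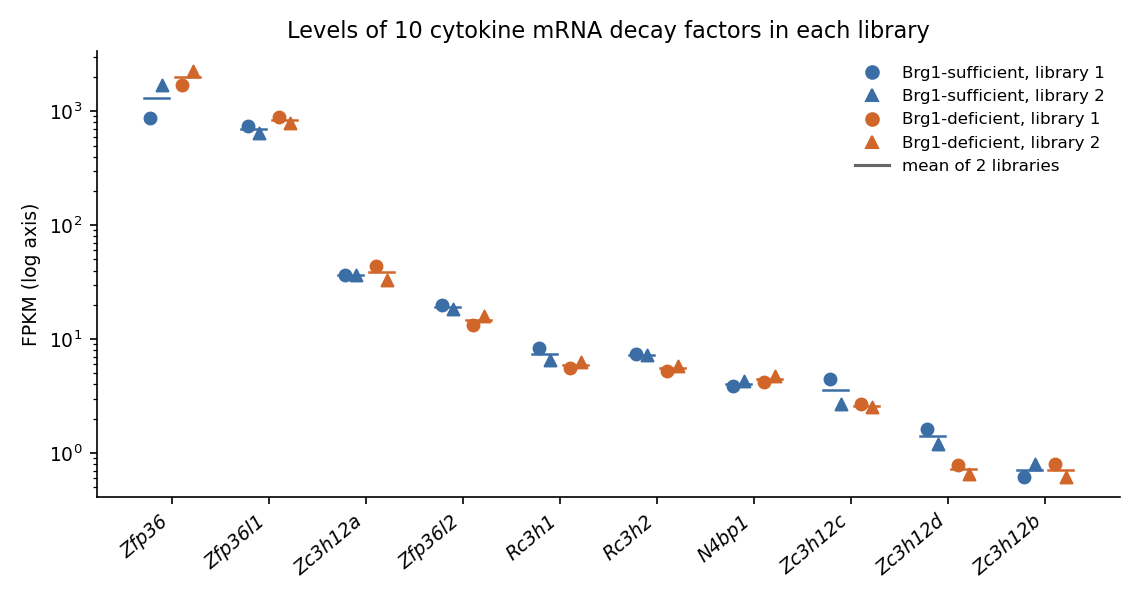
FPKM on a log axis for the 10 decay factors, ordered by their mean, with 1 point per library (blue, Brg1-sufficient; orange, Brg1-deficient) and a bar at each group's mean of 2 libraries. Zfp36 and Zfp36l1 lie between 639 and 2255 FPKM in every library, and the other 8 genes lie at 43.9 FPKM or less.

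In the comparison of Brg1-deficient with Brg1-sufficient cells, none of the decay factors passed the test. The test was limma on log2(FPKM + 1) over the 14739 genes with a mean above 1 FPKM in either group, with Benjamini-Hochberg adjustment over all of them. At an adjusted p under 0.05 it called 0 of the 9 decay factors tested, and 0.305% of all genes (33 lower and 12 higher). At an unadjusted p under 0.05, 0 of the 9 passed either way, beside 6.47% of all genes lower and 6.12% higher. Their adjusted p ranged from 0.444 to 0.913. Both libraries of 1 group lay beyond both of the other in 5 genes that were lower (Zfp36l2, Zc3h12c, Zc3h12d, Rc3h1 and Rc3h2) and 1 that was higher (Zfp36l1), beside 20.2% of all genes lower and 24.4% higher. In the other 3 tested (Zfp36, Zc3h12a and N4bp1) the groups overlapped or tied. The median log2 fold change was -0.27 for the decay factors tested and 0.03 for all genes tested. Zc3h12d was tested only through the group where it was high, and without it the median of the other 8 was -0.11, with 4 lower without overlap and 1 higher. For any 1 gene, 2 libraries per group allow an exact permutation p (two-sided) of 0.333 at the lowest.

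**Figure D2:**
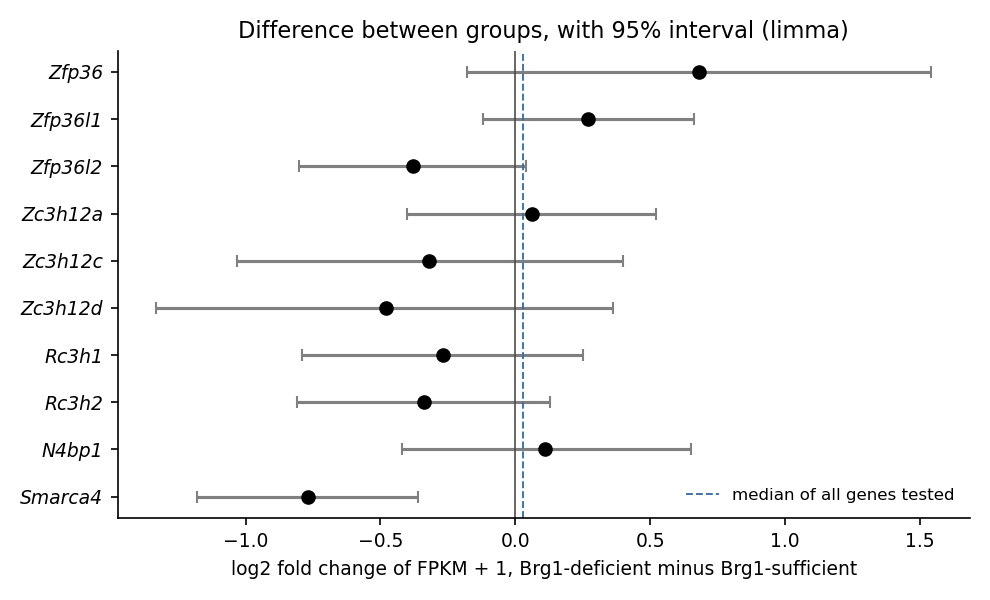
Log2 fold change of FPKM + 1 (Brg1-deficient minus Brg1-sufficient, points) with the 95% interval from limma (bars) for the 9 decay factors tested and for Smarca4; the dashed line is the median of all genes tested. The intervals of all 9 decay factors include 0, while that of Smarca4 runs from -1.18 to -0.36.

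Zfp36 encodes tristetraprolin itself and is induced early by many stimuli. Its level was 878 and 1712 FPKM in Brg1-sufficient cells and 1712 and 2255 FPKM in Brg1-deficient cells. Brg1-sufficient library 1 was the lowest, Brg1-deficient library 2 was the highest, and the other 2 libraries held the same value. The means were 1295 ± 590 and 1984 ± 384 FPKM (SD, n = 2 each). On the log2 scale the difference was 0.68 (standard error 0.344, 95% interval -0.18 to 1.54, adjusted p = 0.499 from limma). The log2 difference was 0.20 without Brg1-sufficient library 1, 1.16 without Brg1-sufficient library 2, 0.88 without Brg1-deficient library 1 and 0.48 without Brg1-deficient library 2. The difference of 1.16 rests on 1 control library, the one with the lowest value.

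The tie of Zfp36 was also a tie of rank. The values at a given rank were nearly the same in all libraries, and 93 of the 100 highest ranks held 1 value in all 4. Zfp36 was at rank 92 and rank 50 in the Brg1-sufficient libraries and at ranks 50 and 40 in the Brg1-deficient libraries. One rank above the tied value stood 1742 FPKM and one rank below stood 1640 FPKM, so at this height the FPKM comes in steps that the libraries share. Its antisense gene Gm44710 shares 125 exon bases with it and was at 0.64 to 0.87 FPKM.

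Other early response genes were set beside Zfp36. The summed FPKM of 17 immediate early genes was 18991 and 22381 in control cells and 23393 and 26022 in Brg1-deficient cells. Of the 17, 4 (Egr1, Egr2, Ier2 and Nfkbia) had the libraries in that order themselves, and the other 13 did not. Of these 17 genes, 0 passed at an adjusted p under 0.05 from limma, and the median log2 fold change was 0.25. At an unadjusted p under 0.05, 3 were higher and 0 lower, beside 6.12% and 6.47% of all genes tested. The 3 were Nfkbia, the inhibitor of NF-κB, at 4831 and 4924 against 6828 and 7210 FPKM, the transcription factor Atf3 at 512 and 633 against 903 and 710 FPKM, and Egr2 at 7.22 and 8.15 against 10.4 and 14.8 FPKM. Macrophages express Zfp36 strongly. The summed level of 8 macrophage and dendritic cell markers was 374 and 504 FPKM in Brg1-sufficient and 188 and 427 FPKM in Brg1-deficient libraries, another order than that of Zfp36. The part of either list in the level of Zfp36 was not tested.

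Zfp36l1 encodes a paralogue with the same kind of zinc fingers. It was at 750 and 639 FPKM in Brg1-sufficient and at 892 and 784 FPKM in Brg1-deficient cells, so both Brg1-deficient libraries were above both controls. The log2 fold change was 0.27 (standard error 0.156, 95% interval -0.12 to 0.66, adjusted p = 0.546 from limma), and 0.16 to 0.39 with 1 library left out. The long non-coding RNA Gm26669 lies on the opposite strand and shares 1672 exon bases with Zfp36l1. It was at 2.27 to 6.5 FPKM, and the use of strand in the counting is not given in the sources used here.

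Zfp36l2, the third member of the family, was lower in both Brg1-deficient libraries than in both controls. It was at 20 and 18.6 FPKM in Brg1-sufficient cells and at 13.4 and 15.8 FPKM in Brg1-deficient cells, or 75.9% of the control mean. On the log2 scale the difference was -0.38 (standard error 0.169, 95% interval -0.80 to 0.04). Its unadjusted p of 0.0705 was the smallest of the decay factors, and its adjusted p was 0.444 from limma. An antisense gene on the other strand shares 105 exon bases with it.

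Within the family, the make-up differed between libraries as much as between groups. Zfp36 held 53.3% and 72.2% of the family's summed FPKM in the Brg1-sufficient libraries and 65.4% and 73.8% in the Brg1-deficient libraries. The share of Zfp36l1 was 45.5% and 27% against 34.1% and 25.7%, and overlapped as well. The share of Zfp36l2 was small, and its groups did not overlap, at 1.21% and 0.783% against 0.512% and 0.518%.

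The 4 regnases spanned levels from 0.62 to 43.9 FPKM. Zc3h12a, which encodes regnase-1, was at 36.3 and 36.8 FPKM in Brg1-sufficient and at 43.9 and 33.2 FPKM in Brg1-deficient cells. The Brg1-deficient libraries lay on both sides of the controls, and the log2 difference was 0.06 (standard error 0.182, 95% interval -0.40 to 0.52, adjusted p = 0.913 from limma). It turned to -0.14 without Brg1-deficient library 1. Zc3h12c was at 4.43 and 2.7 FPKM against 2.68 and 2.51 FPKM. Its groups were narrowly apart, and the log2 fold change of -0.32 (95% interval -1.03 to 0.40, adjusted p = 0.677 from limma) became -0.04 without Brg1-sufficient library 1. Mir6244 lies on the opposite strand within it, shares 117 exon bases and was above 0 FPKM in 1 library.

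Zc3h12d and Zc3h12b were near the lower limit of the tested range. Zc3h12d was at 1.63 and 1.2 FPKM in Brg1-sufficient cells and at 0.78 and 0.66 FPKM in Brg1-deficient cells, or 50.9% of the control mean. It entered the test only through the Brg1-sufficient group, where it was above 1 FPKM. The log2 fold change was -0.48 (standard error 0.337, 95% interval -1.33 to 0.36, adjusted p = 0.612 from limma), and -0.87 with a pseudocount of 0.1 in place of 1. Zc3h12b was at 0.62 and 0.8 FPKM against 0.8 and 0.62 FPKM, with a mean of 0.71 in both groups, and was not tested.

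Neither roquin gene passed the test. Rc3h1, which encodes roquin-1, was at 8.31 and 6.52 FPKM in Brg1-sufficient and 5.62 and 6.27 FPKM in Brg1-deficient libraries. Rc3h2, which encodes roquin-2, was at 7.33 and 7.18 FPKM against 5.29 and 5.8 FPKM, so its Brg1-deficient mean was 76.4% of that of the controls. Both genes were among those lower without overlap, which held for 20.2% of all genes tested. The log2 fold change was -0.27 for Rc3h1 (95% interval -0.79 to 0.25, adjusted p = 0.631 from limma) and -0.34 for Rc3h2 (95% interval -0.81 to 0.13, adjusted p = 0.533 from limma). With 1 library left out, the log2 difference of Rc3h1 ran from -0.42 to -0.12 and that of Rc3h2 from -0.39 to -0.28. The sum of the pair was 15.6 and 13.7 FPKM against 10.9 and 12.1 FPKM.

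N4bp1 encodes an RNase with a domain like that of regnase-1. It was at 3.88 and 4.26 FPKM in Brg1-sufficient and 4.19 and 4.79 FPKM in Brg1-deficient cells, with overlap. The log2 fold change was 0.11 (standard error 0.212, 95% interval -0.42 to 0.65, adjusted p = 0.855 from limma), and 0.03 to 0.19 with 1 library left out.

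The genes lie on 10 different chromosomes of GRCm38. The tristetraprolin family is at chr7:28376784-28380253 (Zfp36), chr12:80107754-80113013 (Zfp36l1) and chr17:84183931-84187947 (Zfp36l2), all on the minus strand. The regnases are at chr4:125118423-125127840 on the minus strand (Zc3h12a), chrX:95711678-95932637 on the plus strand (Zc3h12b), chr9:52111344-52168572 on the minus strand (Zc3h12c) and chr10:7832470-7870396 on the plus strand (Zc3h12d). Rc3h1 is at chr1:160906418-160974978 on the plus strand, Rc3h2 at chr2:37370069-37422903 on the minus strand and N4bp1 at chr8:86808160-86885258 on the minus strand.

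In the machinery that the decay factors recruit, no gene passed the test. Of 18 deadenylase genes in the table, all tested, 0 passed at an adjusted p under 0.05 from limma, 12 had a log2 fold change above 0 and 6 below, and the median was 0.09. Beside 6.12% higher and 6.47% lower of all genes tested, 1 was higher and 0 lower at an unadjusted p under 0.05. This was Cnot6l, a catalytic subunit of CCR4-NOT, at 24.2 and 34.5 FPKM in Brg1-sufficient and 47.6 and 39.5 FPKM in Brg1-deficient cells (log2 fold change 0.57, and 0.32 to 0.82 with 1 library left out, adjusted p = 0.382 from limma). The next smallest p values were those of Btg1 and Btg2, which promote deadenylation through CCR4-NOT, and Btg2 was at 573 and 874 against 864 and 1046 FPKM (log2 fold change 0.43, and 0.12 to 0.73 with 1 library left out). Of 23 decapping and exonuclease genes tested, 0 passed at either threshold, their log2 fold changes lay between -0.19 and 0.33, and the median was 0.08. The largest was that of Dcp1b, a decapping subunit, at 5.32 and 5.65 against 6.96 and 7.39 FPKM. Exosc2 and Ttc37, of the exosome and its helper complex, had the next smallest p values, with log2 fold changes of 0.24 and 0.22.

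Among 17 partners and regulators of the decay factors, 0 passed at an adjusted p under 0.05 from limma. At an unadjusted p under 0.05, 1 was lower and 0 higher, beside 6.47% and 6.12% of all genes tested. The 1 was Malt1, the protease that cleaves regnase-1, the roquins and N4BP1 in stimulated lymphocytes. It was at 6.36 and 5.82 FPKM in Brg1-sufficient and at 4.03 and 3.19 FPKM in Brg1-deficient cells, with no overlap (log2 fold change -0.63, 95% interval -1.17 to -0.08, adjusted p = 0.339 from limma). Its scaffold partner Bcl10 was at 88.6 and 71.7 against 63.6 and 56 FPKM (log2 fold change -0.41, adjusted p = 0.408 from limma). Gigyf2, a translational repressor that binds tristetraprolin, was at 27.8 and 26.4 against 31.1 and 34.2 FPKM. Mapkapk2, the kinase that phosphorylates tristetraprolin, was named for this role and not by its p, and was at 45.8 and 35.3 against 45.6 and 38.3 FPKM.

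Of 12 other AU-rich element and mRNA stability proteins, 0 passed at an adjusted p under 0.05 from limma. At an unadjusted p under 0.05, 2 were lower, beside 6.47% of all genes tested. Ybx1, a stabilizing mRNA-binding protein, was at 181 and 124 FPKM in Brg1-sufficient and at 68 and 83.5 FPKM in Brg1-deficient cells, 49.6% of the control mean (log2 fold change -0.98, 95% interval -1.55 to -0.42, adjusted p = 0.18 from limma). Celf2, which binds U-rich and GU-rich sequences, was at 201 and 183 against 134 and 140 FPKM (log2 fold change -0.49, adjusted p = 0.237 from limma). Arid5a, which protects targets of regnase-1, was at 102 and 95.9 against 91.5 and 78.4 FPKM. Of the 12 genes, these 3 (25%) and no other were lower without overlap, beside 20.2% of all genes tested, and they were named for the smallest p values of the list.

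**Figure D3:**
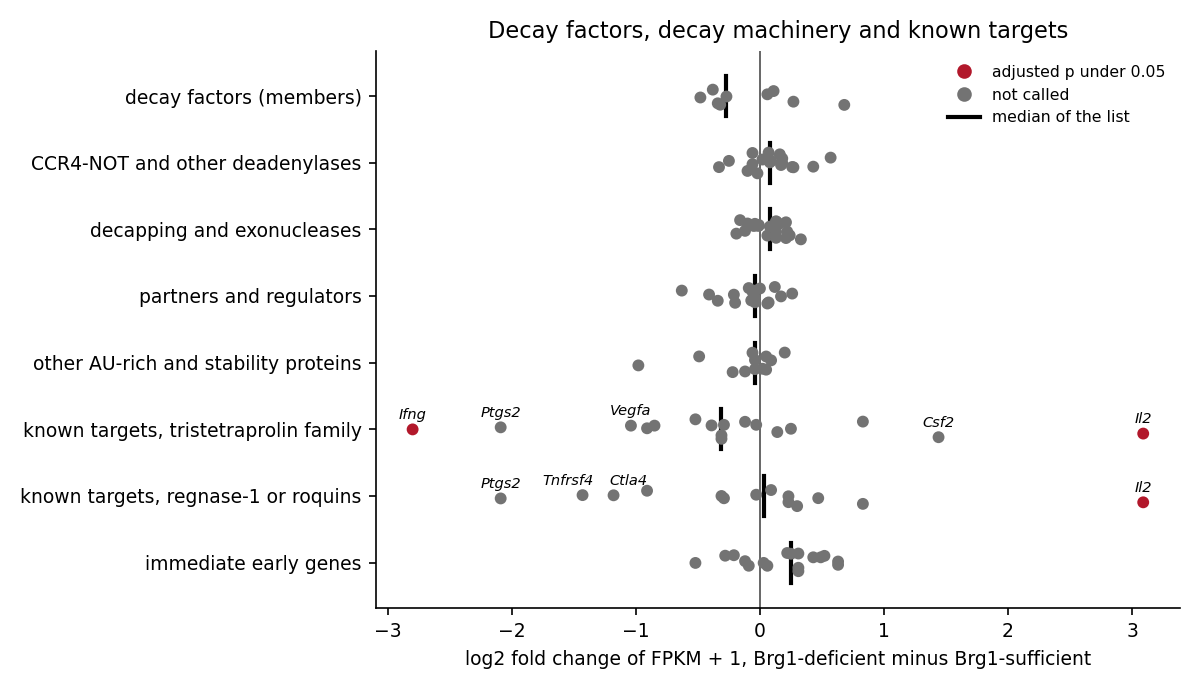
Log2 fold change of FPKM + 1 (Brg1-deficient minus Brg1-sufficient) for each tested gene of the decay factors and of 7 lists, with a bar at the median of each list and genes with an adjusted p below 0.05 (limma) in red. The machinery lists have medians between -0.04 and 0.09, and the widest spread, from -2.80 to 3.09, is among the targets of the tristetraprolin family.

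The transcripts known as targets moved in both directions. Of 17 tested targets of the tristetraprolin family, 1 fell and 1 rose at an adjusted p under 0.05 from limma. At an unadjusted p under 0.05, 5 were lower and 3 higher, beside 6.47% and 6.12% of all genes tested. The median log2 fold change of the 17 was -0.31. Il2, a T cell growth factor, rose from 4.58 and 7.98 FPKM in Brg1-sufficient cells to 59.3 and 59.6 FPKM in Brg1-deficient cells (adjusted p = 0.0383 from limma). Ifng, the type 1 cytokine, fell from 22.8 and 37.3 FPKM to 3.42 and 3.22 FPKM (adjusted p = 0.0386 from limma), beside the lower sums of ILC1 and NK cell markers above, whose part in it was not tested. Both calls were lost when any 1 library was left out, at adjusted p between 0.126 and 0.596 for Il2 and between 0.159 and 0.596 for Ifng. No gene of the table was called in those fits, and the log2 fold changes stayed between 2.75 and 3.44 for Il2 and between -3.15 and -2.46 for Ifng.

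In Csf2, Ptgs2 and Myc, named for their small p values, the groups were apart without passing the test. Of the 17 tested targets of the tristetraprolin family, 4 were higher without overlap (23.5%) and 6 lower (35.3%). Of all genes tested, 24.4% were higher and 20.2% lower in this way. Csf2 was at 245 and 199.7 FPKM in Brg1-sufficient and 564 and 638 FPKM in Brg1-deficient cells, and its adjusted p from limma was 0.0572. Ptgs2, the inducible cyclooxygenase and a target of both kinds of decay factor, was at 57.2 and 37.1 against 10.2 and 9.9 FPKM, with the same adjusted p. Myc was at 10.5 and 8.97 against 5.04 and 4.83 FPKM (adjusted p = 0.171 from limma). With a limit of 5 FPKM in place of 1, the adjusted p from limma was 0.0294 for Csf2 and 0.0259 for Ptgs2. Tnf, named after its values were seen, was at 138 and 232 against 288 and 353 FPKM (log2 fold change 0.83, adjusted p = 0.316 from limma).

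Of 14 tested targets of regnase-1 or the roquins, 0 fell and 1, Il2, rose at an adjusted p under 0.05 from limma. At an unadjusted p under 0.05, 4 were lower and 2 higher, beside 6.47% and 6.12% of all genes tested. Of these 4, Tnfrsf4 was tested only through the Brg1-sufficient group, where it was high. The median log2 fold change was 0.03, with 7 genes on each side of 0. The chemokine Cxcl1 was at 27.4 and 28.8 FPKM in Brg1-sufficient and at 17.5 and 12 FPKM in Brg1-deficient cells (log2 fold change -0.91, adjusted p = 0.184 from limma). Ctla4, a checkpoint receptor, was at 32.4 and 31.9 against 20 and 9.18 FPKM (log2 fold change -1.18, and -1.70 to -0.66 with 1 library left out, adjusted p = 0.266 from limma). Both target lists hold Il2 and Ptgs2, among others, and were drawn up with results of these libraries known.

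Targets with a nonamer were found on both sides of 0. It was in the 3' UTR of 8 of 19 targets of the tristetraprolin family (42.1%) and of 6 of 17 targets of regnase-1 or the roquins (35.3%). Among the targets with nonamers, Il2, Csf2 and Tnf were higher in Brg1-deficient cells, and Ptgs2, Cxcl1 and Cxcl2 were lower, although the groups of Cxcl2 overlapped. Notch1 and Rel, with 1 nonamer each, had log2 fold changes of 0.25 and 0.09, and Il23a was too low to be tested. Cxcl2, a chemokine with 4 nonamers and outside the rule for named genes, was at 64.5 and 134 against 89.6 and 64.9 FPKM. Ifng held 0 nonamers and 6 copies of the AU-rich pentamer ATTTA, which lies within the nonamer. Over all tested genes with a 3' UTR, the median log2 fold change was 0.03 for the 10151 with no nonamer, 0.07 for the 620 with 1, 0.06 for the 107 with 2 and 0.10 for the 64 with 3 or more. Of the 791 with any nonamer, 50 were lower and 54 higher at an unadjusted p under 0.05 from limma (6.32% and 6.83%), beside 6.46% and 6.04% of all tested genes with a 3' UTR. Genes with a nonamer had longer 3' UTRs, with a median of 2216 bases beside 922.

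**Figure D4:**
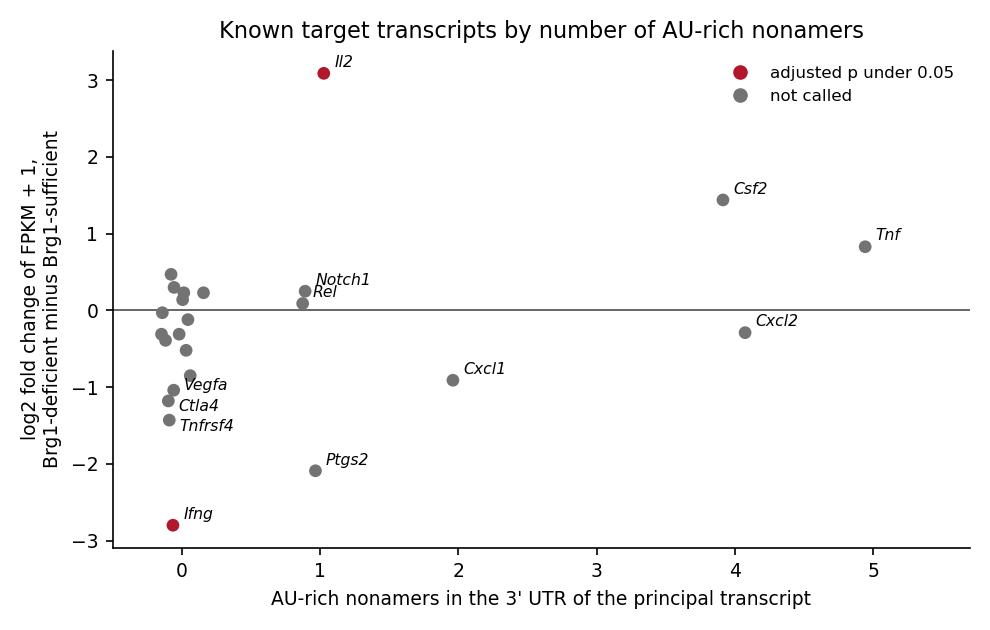
Log2 fold change of FPKM + 1 (Brg1-deficient minus Brg1-sufficient) of the tested target transcripts against the number of AU-rich nonamers in the 3' UTR of the principal transcript, with points shifted slightly sideways and genes with an adjusted p below 0.05 (limma) in red. Il2 with 1 nonamer and Ifng with 0 have the largest differences, 3.09 and -2.80, and Csf2 and Cxcl2, both with 4, lie on opposite sides of 0. The annotated 3' UTR used for Vegfa has only 27 bases.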

How the data were processed

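The authors mapped single-end reads of 4 libraries to GRCm38.p5 with STAR 2.5, quantified genes with RSEM 1.2 on GENCODE M16, and deposited 1 FPKM value for each gene in each library. Sorted values were nearly equal across libraries (13596 of 13693 ranks above 1 FPKM differed by less than 1%), as quantile normalization gives, so a difference in total RNA is not visible. Counts were not used here, the depth is unknown, and no counting interval was computed. Values were taken as log2(FPKM + 1), which understates changes of low genes, and tested with limma 3.58.1 (lmFit, eBayes with trend) in R 4.3.3, with Benjamini-Hochberg adjustment over 14739 genes. The fit was tried on simulated data with the same spread for every gene. That setting is simpler than these data, so it does not test the calls made here. The p-values rest on the spread between 2 libraries per group, with each gene's variance moderated by limma toward a trend over all genes tested. Positions and 3' UTRs came from GENCODE M21 through Python 3.11.15. Named genes were the members, Smarca4 and, per list, genes past the threshold and the 3 smallest p values. Members, lists and this rule were chosen with earlier results of these data known. The alternatives tried were another pseudocount, other filters, no trend, quantile normalization, a replicate block and leaving out each library. One detail of the donor genotype is not reported here.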

Additional observations from a re-analysis of the deposited data

How the results depend on the processing

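Of 87 values of the decay factors under the alternatives, 86 kept their direction. Many of them could not change it, because the filters, the trend and the replicate block leave the log2 fold change as it is. Quantile normalization hardly moved values already nearly equal by rank, which left the pseudocount and the runs with 1 library left out. Even these could not turn the direction where the groups lay apart, nor in Zfp36, whose groups met only in a tie. They bear on the direction of Zc3h12a and N4bp1 only. The value that did not keep its direction was that of Zc3h12a, whose log2 fold change ran from -0.14 (without Brg1-deficient replicate 1) to 0.26 with 1 library left out. None of the decay factors passed an adjusted p of 0.05 from limma in any alternative run. The library numbers, which neither the labels nor the study says pair the libraries, deviated with a correlation of -0.000386. With the number as a replicate block, the smallest adjusted p of a decay factor was 0.141, that of Zfp36 (unadjusted p 0.0086). Over all genes, 33 lower and 12 higher calls fell to 0 and 0 without a filter on low FPKM (1400 and 1308 at an unadjusted p under 0.05) and 0 and 0 without the trend in limma (965 and 903). They became 73 and 41 with a mean above 5 FPKM, and 248 and 150 with the replicate block. When each library was left out the calls ranged from 0 to 0, with 509 to 1331 lower and 521 to 1489 higher genes at an unadjusted p under 0.05. The 2 genes called in the lists, Il2 and Ifng, became 0 with no filter, 0 without the trend and 0 to 0 with 1 library left out, and 4 genes, with Csf2 and Ptgs2, were called both above 5 FPKM and with the block. The median of the tristetraprolin targets moved from -0.31 to 0.12 without Brg1-deficient replicate 1. Of the 230 values of the other named genes, 214 kept direction and call. With the longest 3' UTR per gene, an alternative chosen after seeing the data, the nonamer was again in 5 of the 10 decay factors and in 8.01% of tested genes. The cause of these shifts was not tested. With 2 libraries per group and no depth, a difference that was not called is not shown to be absent.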
